A study of Mus musculus with 3 samples.

Results

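The genes described here are 8 secreted antagonists of Wnt signalling, *Dkk1*, *Dkk2*, *Dkk3*, *Sfrp1*, *Sfrp2*, *Sfrp4*, *Frzb* and *Wif1*, with *Axin2*, a gene that Wnt signalling induces, and the ligand *Wnt5a*. They were taken by name, as the probe sets whose annotation names 1 of these genes alone, which gave 21 probe sets for all 10 genes, of 34945 probe sets for 18193 genes on the array. The arrays compared NIH3T3 cells, an immortalized line of mouse embryo fibroblasts, in 3 states with 1 array each. The first stably overexpressed mtYAP, mouse YAP in which serine 112, which the Hippo kinases LATS1 and LATS2 phosphorylate, is substituted by alanine (S112A), the second overexpressed wild-type YAP, and the control cells are labelled untransduced. Both overexpressing lines were made by retroviral infection and puromycin selection, and all cells were grown in DMEM with 10% calf serum. The paper's methods also describe virus made from an empty vector, whereas the label calls the control untransduced. If that label holds, infection and selection cannot be told apart from YAP in any difference from control. The study's question was which genes the 2 forms of YAP alter in cells that they transform.

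Wnt ligands are secreted proteins that bind Frizzled receptors and the co-receptors LRP5 and LRP6 at the cell surface. Binding stabilizes β-catenin, which enters the nucleus and activates genes with TCF/LEF factors, among them *Axin2*, whose product helps to degrade β-catenin again. Dickkopf proteins such as DKK1 and DKK2 bind the co-receptors, whereas the secreted Frizzled-related proteins and WIF1 bind the ligands themselves. WNT5A often acts without β-catenin, through receptors such as ROR2. In human tumours, *SFRP1* and *DKK3* are known as genes that are frequently silenced.

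Levels are the deposited log2 values, and a gap of 1 between arrays on this scale stands for a factor of 2. A level of 6 or more was taken as clearly measured, a working limit and not a detection call, and it was reached by 33.0% of probe sets in mtYAP, 33.9% in YAP and 34.0% in control. With 1 array per condition there is no spread between replicates, no test was made, and every difference compares single arrays. Both YAP lines are set against the same control array, and 1 free-text label of it refers to an embryonic stem cell experiment while its other labels name NIH3T3. The 5 embryonic stem cell markers examined, *Pou5f1*, *Nanog*, *Sox2*, *Zfp42* and *Esrrb*, stayed under 6 on every array, with a highest level of 4.15, as did all 13 markers of epithelial, endothelial and blood cells. The 9 fibroblast markers were all at 6 or more on every array. *Yap1* itself read 7.89 in mtYAP, 8.06 in YAP and 8.57 in control over 2 probe sets. The vectors carried the coding sequence, and the stretch of mRNA that these probe sets detect is not stated in the labels or methods, so *Yap1* checks neither label.

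The 10 genes differed from one another in size and, in mtYAP, in direction. In mtYAP 5 lay above control and 5 below it, and in YAP 1 lay above and 9 below. Those above control in either line were all under a level of 6 as gene means. In mtYAP cells, 2 of the 10 genes, *Dkk3* and *Dkk2*, lay more than 2-fold below control and none more than 2-fold above it, and in YAP cells this held for *Dkk3* alone. Over all genes, 4.06% lay below a log2 difference of −1 in mtYAP and 3.77% above 1, and in YAP these shares were 1.26% and 1.36%. The median difference of the 10 genes was −0.03 in mtYAP and −0.24 in YAP, against medians of 0.02 and −0.00 over all genes. Most of these genes were dim in all lines, and 8 of the 10 stayed under a level of 6 on all arrays as the mean of their probe sets, and 15 of the 21 probe sets never reached it. Both genes that did reach it were below −1 in mtYAP, and 1 of them was in YAP. Of the 7129 genes that reached this level on at least 1 array, 8.22% stood below −1 in mtYAP and 2.3% in YAP.

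**Figure D1:**
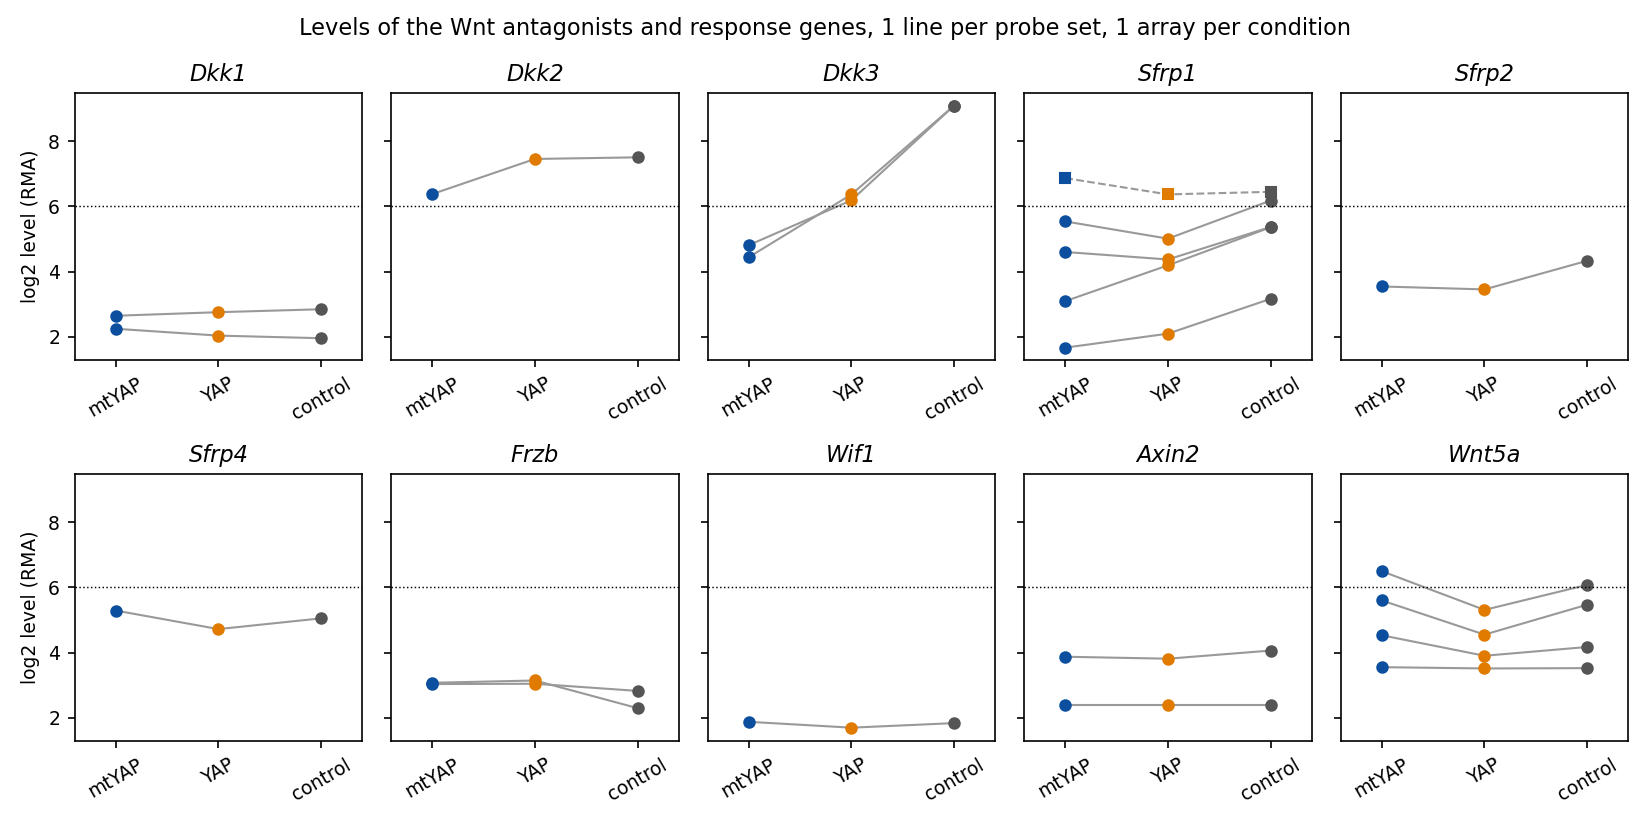
Log2 level (vertical axis) of each probe set of the 10 genes on the mtYAP (blue), YAP (orange) and control (grey) arrays. Each line joins the values of 1 probe set, squares mark the Sfrp1 probe set of the _x kind, and the dotted line is the level of 6. Dkk3 stands at 9.10 in control in both probe sets and under 5 in mtYAP, and Axin2, Dkk1, Frzb and Wif1 lie well under 6 on every array.

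*Dkk3*, a divergent Dickkopf protein that is not a typical ligand of LRP6, showed the largest difference among the 10 genes. Its probe sets read 4.44 and 4.81 in mtYAP cells, 6.37 and 6.19 in YAP cells and 9.10 in both cases in control cells. The 2 probe sets thus placed the arrays in the same order, with YAP between mtYAP and control and with no overlap between arrays. The mean difference from control was −4.48 (22.2-fold lower) in the mtYAP line and −2.82 (7.06-fold lower) in the YAP line. Among 18193 genes this was the 8th lowest difference in mtYAP and the 11th lowest in YAP. The level in mtYAP lay under 6, where the arrays measure poorly, so the size of the first value is uncertain, whereas the YAP level of 6.28 and the control level of 9.10 were both above it.

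The direct comparison of mtYAP with YAP gave −1.66 for *Dkk3* (3.15-fold lower in mtYAP) and −1.08 for *Dkk2* (2.11-fold lower). These were the members below −1 in that comparison, where 1.42% of all genes lay below −1 and 0.748% above 1, and no member lay above 1. The 3 genes closest to *Dkk3* in the pair of differences from control, out of the 7129 that reached a level of 6, were *Aoc3*, an amine oxidase, at a distance of 0.166, *Ifi207*, an interferon-inducible gene, at 0.258, and *Ptn*, which encodes the growth factor pleiotrophin, at 0.343. The distance is Euclidean on the log2 scale and rests on 3 arrays. Their differences in mtYAP and then in YAP were −4.32 and −2.88 for *Aoc3*, −4.29 and −2.64 for *Ifi207* and −4.78 and −2.98 for *Ptn*. *Aoc3* and *Ifi207* reached 6 on the control array alone.

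*Dkk2*, a Dickkopf protein that can inhibit or activate LRP6 depending on its context, differed in mtYAP cells but hardly in YAP cells. Its probe set read 6.38 in mtYAP, 7.46 in YAP and 7.51 in control. All 3 levels were above 6, and the mtYAP array stood apart from the other two. The difference from control was −1.13 (2.19-fold lower) in mtYAP and −0.05 (1.04-fold lower) in YAP, and 3.32% of all genes lay lower in mtYAP than *Dkk2* did. This rests on a single probe set. Closest to it in the pair of differences were *Bcl3*, a nuclear cofactor of NF-κB, at a distance of 0.03 and with differences of −1.13 and −0.08, *Rabl2*, a small GTPase of cilia, at 0.0447, and *B4gat1*, a glycosyltransferase, at 0.0632. *Dkk1*, the best known inhibitor of LRP6 and itself a target of β-catenin, was dim on every array. Its probe sets read 2.64 and 2.24 in mtYAP, 2.75 and 2.03 in YAP and 2.84 and 1.95 in control, and they disagreed in sign in both comparisons.

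The sequence before the start of *Dkk2* and of *Dkk1* is shown because *Dkk2* lay past the 2-fold limit in mtYAP alone and *Dkk1* is known as a target of β-catenin. The sequences are RefSeq's, in build GRCm38.p6, read 5′ to 3′ in the direction of the gene. *Dkk2* lies on the plus strand (chr3:132085042-132085265, from 250 to 27 bases before the start of transcription) and *Dkk1* on the minus strand (chr19:30549497-30549746, the 250 bases before the start). Capitals mark the core letters of TCF/LEF motifs, CTTTGA or CTTTGT on either strand.
Dkk2: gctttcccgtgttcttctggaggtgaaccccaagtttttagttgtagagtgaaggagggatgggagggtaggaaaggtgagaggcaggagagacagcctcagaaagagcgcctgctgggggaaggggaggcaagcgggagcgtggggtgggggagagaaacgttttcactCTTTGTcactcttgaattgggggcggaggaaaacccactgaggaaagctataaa
Dkk1: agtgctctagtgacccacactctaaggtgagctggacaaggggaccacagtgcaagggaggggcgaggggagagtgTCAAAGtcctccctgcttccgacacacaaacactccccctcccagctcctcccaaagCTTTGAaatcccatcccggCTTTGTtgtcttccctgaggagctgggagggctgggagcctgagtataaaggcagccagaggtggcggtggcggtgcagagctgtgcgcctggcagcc

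The *Dkk1* window holds 3 such cores, beginning 174, 117 and 98 bases before the start, the first of them on the opposite strand, and the *Dkk2* window holds 1, at 80 bases. None of them overlap. Of the 250 bases searched in *Dkk2*, the 26 next to the start are not printed, since they lie inside the annotated gene. The search covered the 250 bases before the start in 6 of the 10 genes, *Dkk1*, *Dkk2*, *Sfrp2*, *Frzb*, *Wif1* and *Axin2*. In *Sfrp2* and *Axin2* these bases lie wholly inside the annotated gene. A TCF/LEF core was found in 3 of the 6, the third being *Frzb* with TCAAAG at 95 bases. Of 32851 windows in the table, 27.6% hold CTTTGA or CTTTGT on either strand, 13.8% the first and 16.5% the second. The core of the TEAD motif, CATTCC on either strand, is present in 12.6% of the windows and in none of the 6. These matches describe letters only. *Dkk3*, *Sfrp1*, *Sfrp4* and *Wnt5a* were not matched.

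*Sfrp1*, which encodes a secreted protein that binds Wnt ligands through a Frizzled-like domain, was read by 5 probe sets that did not behave alike. In the 4 plain probe sets, the mtYAP levels were 5.54, 4.60, 3.09 and 1.66, the YAP levels 5.01, 4.37, 4.19 and 2.09, and the control levels 6.18, 5.37, 5.36 and 3.16. Each of these 4 was highest in control, and YAP was lower than mtYAP in 2 of them and higher in the other two. The remaining probe set is of the _x kind, whose probes can also match other transcripts, and it read 6.87 in mtYAP, 6.37 in YAP and 6.45 in control. It stood above control by 0.42 in mtYAP, against differences between −2.27 and −0.64 in the 4 plain probe sets.

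Over all 5 probe sets, *Sfrp1* averaged 4.35 in mtYAP, 4.41 in YAP and 5.30 in control, differences of −0.95 and −0.90 that stayed inside the 2-fold limit. Without the _x probe set they were −1.30 and −1.10, both past it. The gene therefore counts as lower or not depending on 1 probe set. In the brightest of the 5 probe sets, which is the _x one, the differences were 0.42 and −0.08. Whether *Sfrp1* was measured by that probe set was not tested.

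The other genes of the Frizzled-related family, whose products bind Wnt ligands too, were dim. *Sfrp2* read 3.54 in mtYAP, 3.45 in YAP and 4.33 in control, differences of −0.79 and −0.88, in a range where all 3 arrays lay under 6. *Sfrp4* read 5.29 in mtYAP, 4.72 in YAP and 5.05 in control, so that YAP was the lowest array and mtYAP the highest. *Frzb*, also called Sfrp3, was the only member above control in both lines, at 0.50 in mtYAP and 0.54 in YAP, but its probe sets read 3.03 and 3.07 in mtYAP, 3.04 and 3.14 in YAP and 2.82 and 2.29 in control, far under 6. *Wif1*, which encodes Wnt inhibitory factor, read 1.87, 1.69 and 1.83 in mtYAP, YAP and control, close to the lowest values on the arrays (1.38, 1.38 and 1.43). No difference between conditions could be read from these 3 values.

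**Figure D2:**
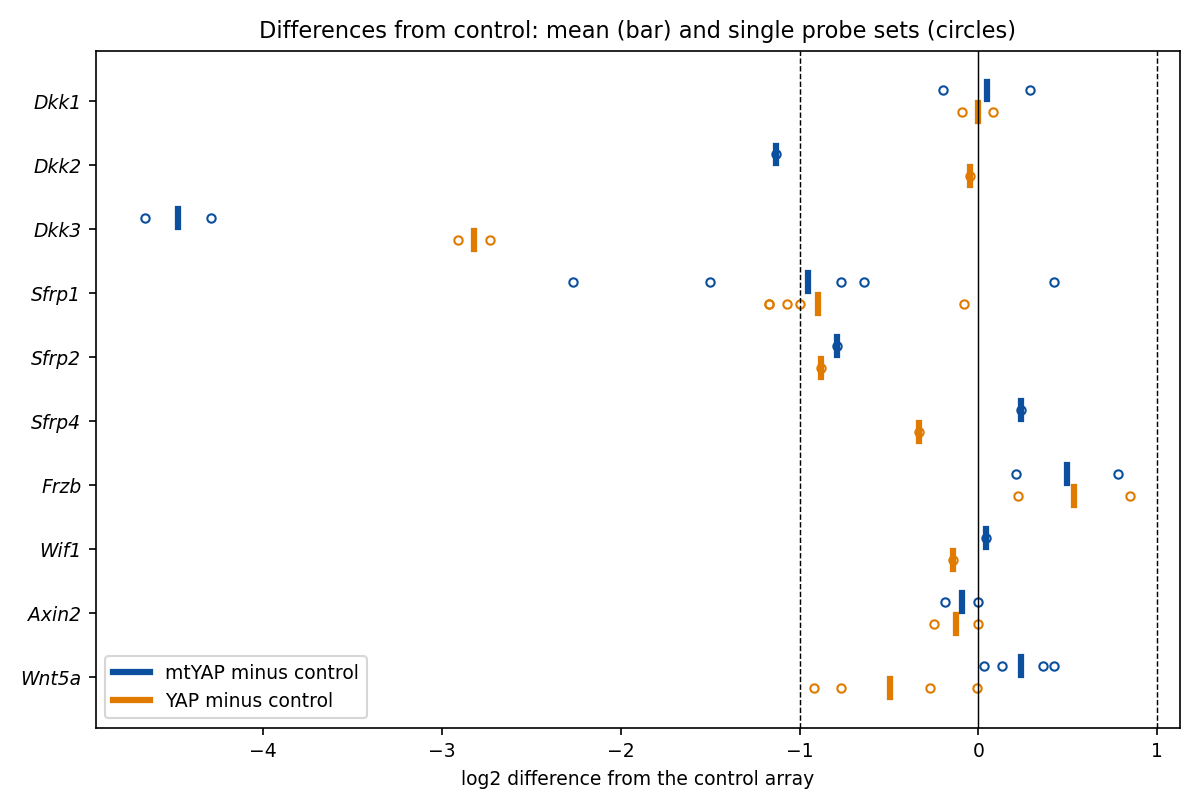
Log2 difference from the control array (horizontal axis) of the 10 genes, with mtYAP in blue above YAP in orange for each gene. Bars are the mean over probe sets, circles are single probe sets and dashed lines mark 2-fold differences. Only Dkk3, in both lines, and Dkk2, in mtYAP, have a mean past −1, and the Sfrp1 circles in mtYAP run between −2.27 and 0.42.

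*Axin2*, the most widely used readout of β-catenin activity, was low on every array. Its probe sets read 2.38 and 3.87 in mtYAP, 2.38 and 3.81 in YAP, and 2.38 and 4.06 in control. The first gave the same value on all 3 arrays, and the second was highest in control. The mean differences were −0.10 in mtYAP and −0.13 in YAP, and 35.1% and 31.2% of all genes lay lower. Neither probe set stood above control in either line, and at these levels a small change or a fall in *Axin2* could be missed.

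*Wnt5a* lay above control in mtYAP and below it in YAP, as *Sfrp4* did. Its 4 probe sets read 6.50, 5.60, 4.53 and 3.55 in mtYAP, 5.31, 4.55, 3.90 and 3.51 in YAP, and 6.08, 5.47, 4.17 and 3.52 in control. In all 4, mtYAP was highest and YAP lowest. The mean difference from control was 0.24 in the mtYAP line and −0.49 in the YAP line, neither past the 2-fold limit. The difference between mtYAP and YAP was 0.73 (1.66-fold higher in mtYAP), and by probe set it was 1.19, 1.05, 0.63 and 0.04, the last in the dimmest probe set. Only the first of the 4 probe sets reached a level of 6. *Ror2*, a receptor of WNT5A, read 4.38 in mtYAP, 3.88 in YAP and 4.82 in control, with YAP lowest as for *Wnt5a* but with mtYAP under control.

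The surrounding pathway was described with lists of ligands, their secretion factors, receptors, inhibitors, R-spondins with Lgr receptors, transduction factors, nuclear factors and response genes. A further list held genes of the β-catenin-independent branch of Wnt signalling. Beside the 10 genes, all these lists together held 121 measured genes. Of these, 6 in mtYAP and 2 in YAP lay above 1, while 7 in mtYAP and 4 in YAP were below −1. The counts in mtYAP are near the shares of all genes given above (3.77% and 4.06%). In YAP, 1.36% of all genes lay above 1 and 1.26% below −1. The medians were −0.07 in mtYAP and −0.09 in YAP. Only 47 of the 121 reached a level of 6, and of these, 5 lay above 1 and 5 below −1 in mtYAP, and 1 and 3 in YAP. Some of those past the limit, such as *Jag1*, *Bambi* and *Sox9*, reached this level only on the array where they were highest. Among all genes at this level, 7.66% lay above 1 in mtYAP and 2.72% in YAP, beside the 8.22% and 2.3% below −1.

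None of the 19 Wnt ligands reached a level of 6 as a gene mean. *Wnt9a*, chosen after its values were seen as the only ligand past the limit, read 5.91 in mtYAP, 5.04 in YAP and 3.99 in control, with differences of 1.93 and 1.06. Its probe sets lay between 0.99 and 2.86 in mtYAP and between 0.19 and 1.92 in YAP. Porcupine and Wntless, which modify and carry ligands, were both measured clearly in all 3 lines, with a median difference of −0.30 in mtYAP and −0.23 in YAP. Of 16 receptors and co-receptors, 6 reached a level of 6 and *Fzd1* was the member past the limit in mtYAP, at 6.91 in mtYAP, 8.42 in YAP and 8.90 in control (−1.99 and −0.49). *Ptk7*, a pseudokinase of planar polarity, was the one past it in YAP, at 5.78 in mtYAP, 5.20 in YAP and 6.64 in control (−0.86 and −1.44). The *Ptk7* values rest on 1 probe set, which lay under 6 in both YAP lines. *Fzd2*, at 9.16 in mtYAP, 9.72 in YAP and 9.97 in control, and the co-receptor *Lrp6*, at 7.29, 7.88 and 8.21 in the same order, differed by less than 2-fold. On each of these receptors, both YAP lines lay under control.

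Among the 16 secreted inhibitors of the list, *Dkk2* and *Dkk3* were again those past −1, and outside the 10 genes only *Igfbp4*, an IGF-binding protein that can also inhibit Wnt signalling, reached a level of 6. It lay slightly above control, by 0.35 in mtYAP and 0.79 in YAP. Of 6 measured membrane-bound inhibitors, *Trabd2b*, a protease that inactivates Wnt ligands, was past −1 at −1.15 in mtYAP and −0.39 in YAP, under 6 on all arrays and named after its values were seen. None of the 7 R-spondins and Lgr receptors, which strengthen Wnt signals, was past either limit.

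Inside the cell, *Dact1*, an adaptor that binds Dishevelled, was the single member of 22 transduction genes past the limit. It read 6.85 in mtYAP, 7.60 in YAP and 9.32 in control, differences of −2.47 and −1.72. *Ctnnb1*, which encodes β-catenin, read 9.89 in mtYAP, 10.11 in YAP and 10.79 in control, within 2-fold. Of 13 measured nuclear factors, *Tle2*, a Groucho co-repressor, read 5.05 in mtYAP, 7.27 in YAP and 8.45 in control (−3.40 and −1.18), and of the same list *Tcf7l1*, a TCF factor that acts mainly as a repressor, read 7.37, 8.54 and 9.12 in the same order (−1.75 and −0.58). Both were lowest in mtYAP and highest in control, as *Dkk3* was. *Tle2* and *Dact1* each rest on 1 probe set, and *Tle2* lay under 6 in mtYAP. *Tle1*, a relative of *Tle2*, lay on the other side of control at 0.89 and 0.56.

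**Figure D3:**
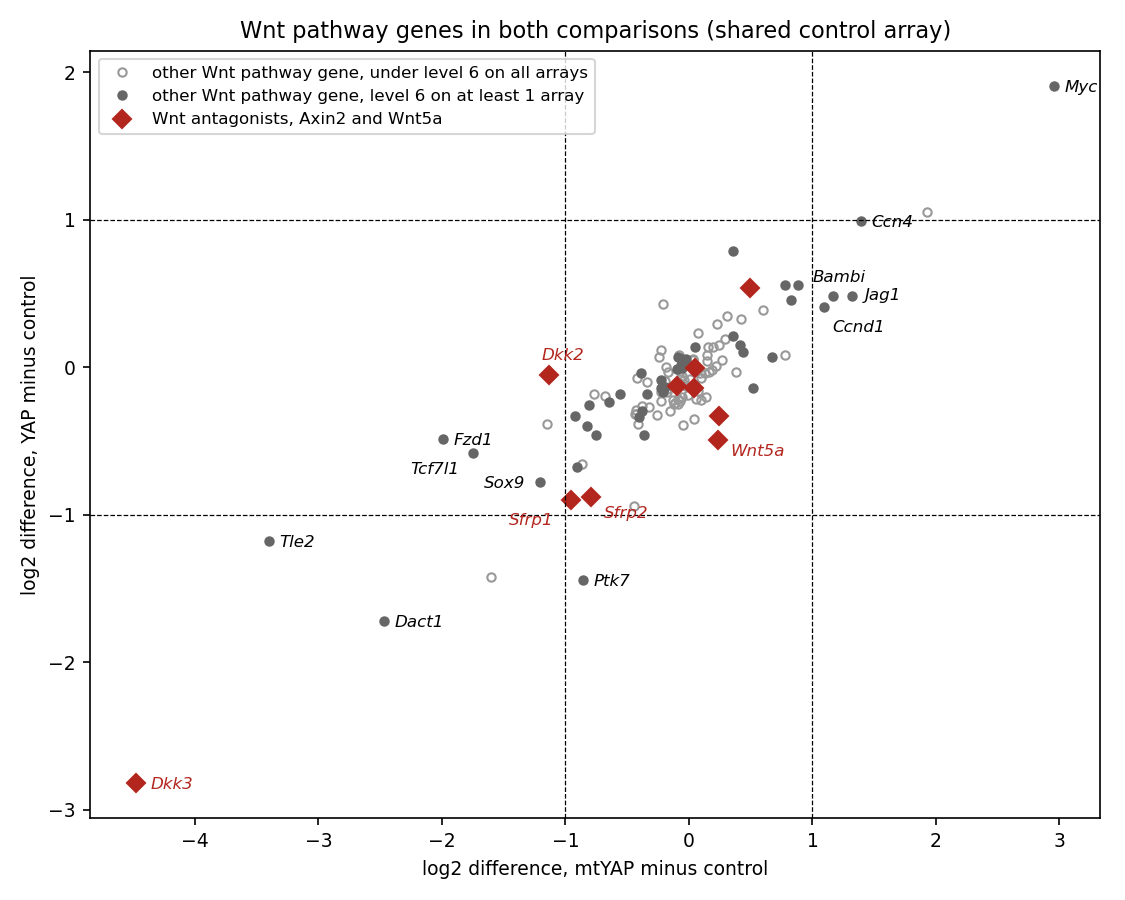
Each point is 1 gene, with its log2 difference mtYAP minus control on the horizontal axis and YAP minus control on the vertical axis, for the 10 genes (red diamonds) and 121 other Wnt pathway genes, filled where a level of 6 was reached on at least 1 array. Dashed lines mark 2-fold differences, and both axes use the same control array. Dkk3 lies farthest to the lower left, Dkk2 lies past the limit on the horizontal axis only, and Myc lies at 2.96 and 1.91.

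Of the 22 measured genes of the Wnt response list, 5 lay above 1 and 1 below −1 in mtYAP, beside 3.77% and 4.06% of all genes. The 10 that are also components of the pathway were *Axin2*, *Lef1*, *Nkd1*, *Nkd2*, *Lgr5*, *Notum*, *Rnf43*, *Znrf3*, *Apcdd1* and *Dkk1*. None had a mean past the 2-fold limit in either line, with differences between −0.38 and 0.78 in mtYAP and between −0.27 and 0.39 in YAP. The 2 probe sets of *Znrf3* ranged from 0.02 to 1.18 in mtYAP and from −0.11 to 0.88 in YAP. Of the 10 genes, 1, *Apcdd1* in mtYAP, reached a level of 6. Of the 12 others, 5 lay above 1 and 1 below −1 in mtYAP, and 1 above 1 in YAP. A level of 6 was reached by 8 of the 12. *Jag1* and *Bambi* reached it in mtYAP alone and *Sox9* in control alone, in each case on the array where the gene was highest. Their place among the genes at this level thus depends on the same difference that is counted. Among all genes at that level, 7.66% lay above 1 and 8.22% below −1 in mtYAP, and 2.72% lay above 1 in YAP. This division of the list was made after values had been seen, and the groups differ in how many genes were clearly measured.

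Those above 1 in mtYAP were *Myc*, which encodes cMYC, *Ccn4*, a matricellular protein also called WISP1, *Jag1*, a Notch ligand, *Bambi*, a decoy receptor of TGF-β, and *Ccnd1*, cyclin D1. *Myc* read 10.71 in mtYAP, 9.66 in YAP and 7.75 in control, on 1 probe set. The paper names *Myc* as a target of YAP in confluent cells, where its quantitative PCR found *Myc* raised in both lines, unlike in subconfluent cells. It also lists *Myc* from these same arrays, so the levels here are not separate evidence. Whether Wnt signalling played a part in the difference of *Myc* was not tested. *Ccn4* read 9.95 in mtYAP, 9.56 in YAP and 8.56 in control (1.39 and 1.00, just inside the limit in YAP). *Ccnd1* read 8.99, 8.30 and 7.90 in the same order (1.09 and 0.41). In each of these 5 genes, YAP lay between mtYAP and control. *Jag1* and *Bambi* reached a level of 6 in mtYAP alone, with differences of 1.32 and 1.17 in mtYAP and 0.48 in YAP for both. The 3 probe sets of *Jag1* lay between 0.48 and 1.76 in mtYAP, and *Bambi* has 1 probe set. *Sox9*, a transcription factor, ran the other way, at 5.02 in mtYAP, 5.44 in YAP and 6.22 in control. It reached a level of 6 on the control array alone. Its 3 probe sets lay between −1.99 and −0.23 in mtYAP and between −1.13 and −0.3 in YAP.

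**Figure D4:**
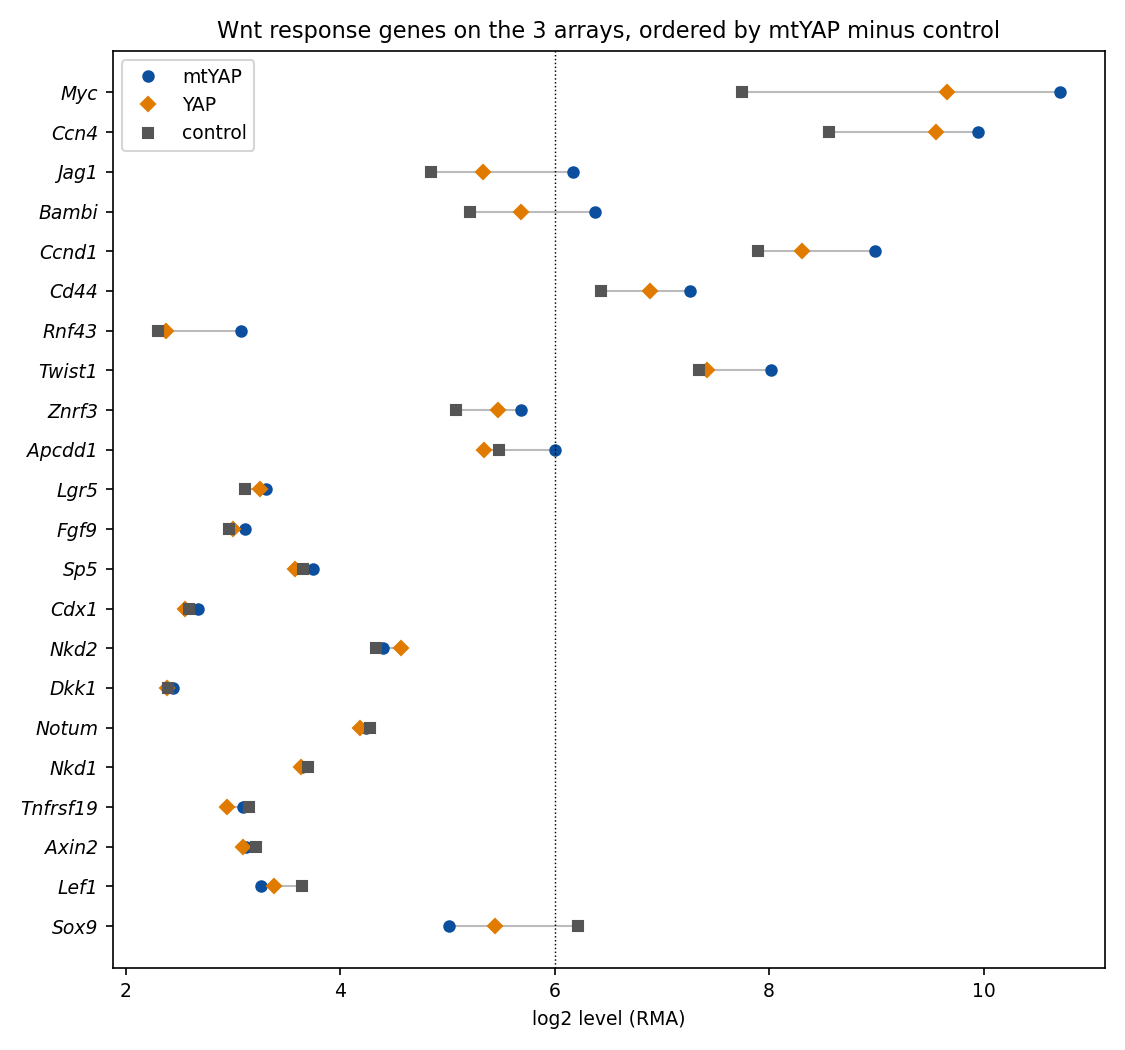
Log2 level (horizontal axis) of the 22 measured Wnt response genes on the mtYAP (blue circles), YAP (orange diamonds) and control (grey squares) arrays, ordered by mtYAP minus control. The dotted line is the level of 6. Axin2, Lef1, Nkd1, Notum and Dkk1 lie well under 6 on all 3 arrays, whereas Myc, Ccn4 and Ccnd1 lie above it with mtYAP highest.

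All 9 fibroblast markers lay under control in mtYAP, as *Dkk3* did. In YAP all but *Col3a1* and *Vim* did so. Below −1 were 4 of the 9 markers in mtYAP and 1 in YAP, where the shares of all genes at this level were 8.22% and 2.3%, and the summed level of the 9 was 89.8 in mtYAP, 97.6 in YAP and 100.4 in control. *Pdgfrb*, a receptor of PDGF, read 7.07 in mtYAP, 8.59 in YAP and 9.69 in control, *Pdgfra* 7.62, 9.67 and 10.03, *Thy1* 8.28, 9.14 and 9.95 and *S100a4* 11.66, 12.84 and 13.34 in the same order. *Thy1* and *S100a4* each rest on 1 probe set. The markers not past the limit, such as *Vim* at 12.76, 13.09 and 12.92 and *Fn1* at 11.28, 11.28 and 11.68, stayed within 2-fold. Of these, the collagen gene *Col3a1* read 10.92 in mtYAP, 11.81 in YAP and 11.09 in control, and so lay above control by 0.72 in YAP. The collagen genes *Col1a1* and *Col1a2* lay at −0.785 and −0.70 in mtYAP and at −0.15 and −0.36 in YAP. The part of the fibroblast markers in the difference of *Dkk3* was not tested. Fewer cells that express a gene and less of its RNA per cell cannot be told apart in such samples.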

How the data were processed

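Total RNA of 3 NIH3T3 lines, 1 sample each, was hybridized by the authors as biotin-labelled cRNA to Affymetrix GeneChip mouse genome arrays. The deposited values are log2 levels per probe set, background subtracted and normalized by the authors with RMA in R and rounded to 2 decimals. RMA and affy are named, without versions, in the submitters' processing notes. Array medians were 4.57 in mtYAP, 4.56 in YAP and 4.60 in control, and the number of arrays limits the precision. Of 45037 probe sets, 34945 name 1 gene in the platform annotation, 932 name several and 9160 name none. Probe sets for several genes or none were left out. Probe sets of a gene were averaged and levels subtracted, with genes beyond a log2 difference of 1 in either direction counted. The members and lists were chosen with earlier results of these data known. Genes named from lists are those past this limit with a level of at least 6 on 1 array or more, and for members past it the 3 nearest genes by differences. Genes outside this rule are given for context or chosen after their values were seen. Of the lists, *Kremen2*, *Tcf7* and *T* were not analysed here. A comparison of protein sequences was planned and not made. Counting was tested on simulated data. Alternatives concerned the joining of probe sets, low levels, scaling and the limit. Python 3.11.15, numpy 2.4.6, pandas 2.3.3, statsmodels 0.14.6 and matplotlib 3.10.9 were used.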

Additional observations from a re-analysis of the deposited data

Results flagged for a closer look

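In 4 of the 10 genes the YAP lines lay on opposite sides of control. The log2 differences were 0.24 for mtYAP and −0.49 for YAP in *Wnt5a*, 0.24 and −0.33 in *Sfrp4*, 0.04 and −0.14 in *Wif1*, and 0.045 and −0.005 in *Dkk1*. The difference between the 2 lines was not tested in any of them, since each is a single array against the same control array. *Wnt5a* had this order in 4 of 4 probe sets, of which 1 reached a level of 6. The dimmest of the 4 differed from control by only 0.03 in mtYAP and −0.01 in YAP, and all 4 were read on the same arrays. *Sfrp4*, *Wif1* and *Dkk1* stayed under 6 on all arrays.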

How the results depend on the processing

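The count of members below −1 in mtYAP minus control stayed at 2 or 3 under every alternative except the limit of 0.65, where it was 4 (8.34% of all genes). Under the other alternatives the share was between 4.00% and 8.22% of the genes compared. In YAP minus control the count of 1 became 2 without _s, _x and _a probe sets (1.31% of all genes). It was also 2 where any probe set could pass (2.06%), and 3 at the limit of 0.65 (3.11%). In mtYAP minus YAP no member lay above 1, but *Wnt5a* did so (1.19) when its brightest probe set stood for the gene. That made the count 1 (0.99% of all genes), as it was where any probe set could pass (1.43%) and at the limit of 0.65 (2.78%). Of 117 differences of single members recomputed under another joining or scaling, 114 kept their side of the 2-fold limit. The 3 that did not were *Sfrp1* without the _x probe set in both comparisons with control, and *Wnt5a* between the lines. *Dkk3* and *Dkk2* kept their side under each joining and scaling run. *Wif1*, with only an _a probe set, has no value without these probe sets. Leaving out a replicate was not possible with 1 array per condition.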

Other observations

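In the β-catenin-independent branch of Wnt signalling, WNT5A and ROR2 act on cell polarity and calcium. Of 24 genes of this branch, 8 reached a level of 6. Apart from *Wnt5a*, they are among the 121 other pathway genes counted above. In each line 1 of the 24 lay below −1 and none above 1, where 4.06% of all genes in mtYAP and 1.26% in YAP were below −1, and the median difference was −0.19 for mtYAP and −0.16 for YAP. The one below was *Daam2*, a formin that links Dishevelled to actin, named after its values were seen. It read 4.24 in mtYAP, 4.42 in YAP and 5.85 in control, differences of −1.61 and −1.43, under a level of 6 on all arrays. *Prickle1*, a planar polarity protein, read 4.51 in mtYAP, 4.72 in YAP and 5.38 in control, differences of −0.86 and −0.65, with probe sets between −1.94 and −0.21 in mtYAP. *Scrib*, a polarity scaffold, lay above control at 0.78 and 0.56.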
